A study of Mus musculus with 17 samples.

Results

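Gene expression was compared between livers of wild type mice given 2,3,7,8-tetrachlorodibenzo-p-dioxin (TCDD) and livers of wild type mice given corn oil alone. All 11 wild type arrays of the series were used, 6 from TCDD and 5 from corn oil livers, of 17 arrays in all, together with every probe set outside the manufacturer's controls (45037 probe sets, standing for 18193 genes with 1 name). The wild type mice were male C57BL/6J with both copies of Ahr (Ahr+/+), 15 weeks old, bred at an institute in Kuopio from Jackson stock. Each received 1 dose of 1000 µg/kg TCDD by gavage, or the corn oil vehicle, and the liver was taken 19 h later. The other 6 arrays, 3 from TCDD and 3 from corn oil livers, came from male mice of the same strain without a functional Ahr gene (Ahr-/-), treated in the same way but 10 weeks old and obtained from The Jackson Laboratory, so that genotype, age and source of the mice cannot be told apart. The labels do not say whether each array stands for a separate mouse, so the p-values reflect how far these arrays differ among themselves, part of which may be technical.

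TCDD is a persistent chlorinated pollutant that acts through AHR, the aryl hydrocarbon receptor. This transcription factor is held in the cytoplasm by chaperones until a ligand binds. The ligand-bound receptor moves to the nucleus, pairs with ARNT and binds DNA at a short core motif, GCGTG, near its target genes. In liver its best known targets are the cytochromes P450 of family 1 and other enzymes that oxidise or conjugate foreign compounds, and in rodents a high dose is known to cause loss of body weight, fatty liver and altered iron and vitamin A handling.

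Expression was read on Affymetrix Mouse Genome 430 2.0 arrays and is given on a log2 scale, on which the array medians lay between 3.08 and 3.19 and the highest value was 15.9. A level near the median is little above background, and near the top of the scale a further rise has little room. One array stood apart from the other wild type arrays. On TCDD replicate 6 the control probe sets for the 3′ end of Gapdh read 1.98 above those for the 5′ end, against -0.15 to -0.0325 on the other 10, and the same gap for Actb was 1.75 against 1.01 to 1.3. These gaps serve as a check of RNA integrity, whose part in the results was not tested. Its deviations from the mean of its group had an SD of 0.319 over all probe sets, against 0.124 to 0.173 on the others. It was kept in the fit, and the results without it are given below.

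A gene is called risen or fallen here when limma's moderated test of TCDD against corn oil in wild type livers gave a Benjamini-Hochberg adjusted p under 0.05 over all 45037 probe sets. TCDD changed 1882 probe sets (4.18%), of which 1146 were higher (2.54%) and 736 lower (1.63%), and 287 (0.637%) differed by at least 2-fold, 207 upwards (0.46%) and 80 downwards (0.178%). Of the 18193 genes, 1149 were called (6.32%): 683 rose (3.75%) and 466 fell (2.56%). The rises were larger than the falls, with 134 genes up (0.737%) and 42 genes down (0.231%) by at least 2-fold, and 38 (0.209%) against 3 (0.0165%) by at least 4-fold. In 555 risen genes (3.05%) every TCDD array lay above every corn oil array, and in 344 fallen genes (1.89%) every TCDD array lay below. The median difference over all genes was 0.01 on the log2 scale.

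Calls were spread unevenly over the range of levels. When the genes were divided into 4 equal classes by mean level, the highest class held 4548 genes, of which 19.5% were called, 516 risen (11.3%) and 373 fallen (8.2%). In the next class 5.15% were called, and in the lowest 2 classes 0.484% and 0.0879%. Genes typical of liver mostly lie in the highest class, so the counts for groups of liver genes below are set against 19.5% as well as against 6.32%.

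**Figure D1:**
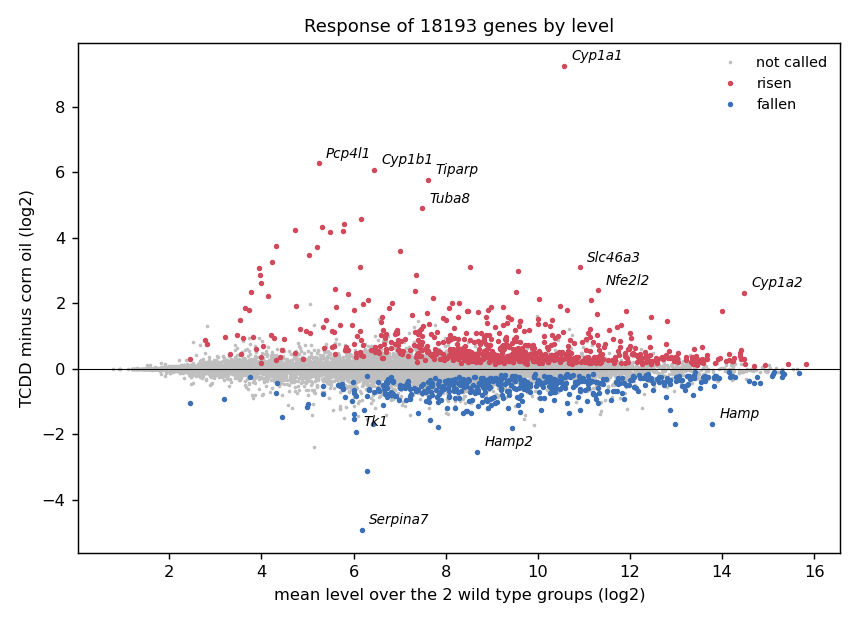
Difference between TCDD and corn oil livers of wild type mice (log2, vertical axis) against the mean level of the gene (log2, horizontal axis), 1 point per gene, with risen genes in red, fallen genes in blue and all others in grey. The rises reach 9.26 for Cyp1a1, the falls -4.91 for Serpina7, and called genes are scarce at the low end of the scale.

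The receptor and its partner did not pass the test. Ahr itself read 9.78, 9.58, 10.24, 9.52 and 10.34 on the corn oil arrays and 9.44 to 10.42 (median 10.03) on the TCDD arrays, a difference of 0.12 ± 0.19 (SE; limma adjusted p = 0.890). The groups overlapped over nearly their whole range. Arnt, the partner of AHR on DNA, differed by -0.11 ± 0.05 (adjusted p = 0.415). The 5 probe sets of Arnt ranged from -0.70 to 0.02, and none was called.

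The largest rises were those of the classical AHR targets together with several genes of other kinds. Cyp1a1, the cytochrome P450 most used as a marker of AHR activity, read 5.74, 4.98, 6.07, 6.00 and 6.95 on the corn oil arrays and 15.08 to 15.25 (median 15.23) on the TCDD arrays. Every TCDD array was near the top of the scale, far above the corn oil arrays, which themselves spanned almost 2 log2 units. The difference was 9.26 ± 1.01, or 611-fold (limma adjusted p = 5.58e-05). This SE includes the spread of the knockout arrays, and the wild type SDs were 0.71 with corn oil and 0.06 with TCDD. Cyp1b1, a mainly extrahepatic relative that hydroxylates steroids and aromatic hydrocarbons, read 3.45, 3.44, 3.37, 3.39 and 3.40 with corn oil and 8.86 to 9.97 (median 9.53) with TCDD, a rise of 6.08 ± 0.16. Cyp1a2, the most abundant family 1 enzyme of untreated liver, stood at 13.22, 13.37, 13.33, 13.28 and 13.33 in corn oil livers and at 15.54 to 15.68 (median 15.65) in TCDD livers. Its rise of 2.33 ± 0.25 (adjusted p = 4.95e-05) ended close to the top of the scale, and the lowest TCDD value of both Cyp1a1 and Cyp1a2 was that of replicate 6.

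2 genes whose products damp AHR signalling rose as well. Tiparp, a mono-ADP-ribosyltransferase that modifies AHR, read 4.77, 5.17, 3.94, 4.67 and 5.06 with corn oil and 10.08 to 10.99 (median 10.49) with TCDD, a rise of 5.78 ± 0.21 without overlap. Ahrr, the AHR repressor, which competes with AHR for ARNT, stood between 2.39 and 2.43 on all 5 corn oil arrays and between 4.41 and 6.76 (median 5.55) on the TCDD arrays, a rise of 3.07 ± 0.31. Its TCDD arrays were spread over more than 2 log2 units, with replicates 1 and 6 lowest. Of 11 measured genes of the AHR complex and its repressors, 3 rose and none fell (27.3% called, median 0.003), the third being Nrip1, a nuclear receptor corepressor, at 0.84 ± 0.14. Of 7 measured target enzymes 5 rose (71.4%, median 2.33): Cyp1a1, Cyp1b1, Nqo1, Cyp1a2 and Gsta2, the last of which was not called without TCDD replicate 6.

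To show the DNA in front of the genes that responded most, the promoter windows of the 5 largest rises are printed, from RefSeq on GRCm38.p6, each from 250 bases before to 50 bases after the annotated start, 5′ to 3′ on the strand of the gene. Capitals mark the core motif GCGTG, or CACGC where it lies on the opposite strand. 3 of the 5 windows hold 1 copy and 2 hold none. The copies begin 54 bases before the start in Cyp1a1, 76 in Cyp1b1 and 170 in Tiparp.
Cyp1a1 (chr9:57697363-57697662, + strand): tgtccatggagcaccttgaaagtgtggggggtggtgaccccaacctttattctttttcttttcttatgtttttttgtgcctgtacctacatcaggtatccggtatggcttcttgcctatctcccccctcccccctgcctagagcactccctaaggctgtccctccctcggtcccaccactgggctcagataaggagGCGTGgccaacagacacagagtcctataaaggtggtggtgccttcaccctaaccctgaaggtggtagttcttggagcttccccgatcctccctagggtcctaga
Pcp4l1 (chr1:171196219-171196518, - strand): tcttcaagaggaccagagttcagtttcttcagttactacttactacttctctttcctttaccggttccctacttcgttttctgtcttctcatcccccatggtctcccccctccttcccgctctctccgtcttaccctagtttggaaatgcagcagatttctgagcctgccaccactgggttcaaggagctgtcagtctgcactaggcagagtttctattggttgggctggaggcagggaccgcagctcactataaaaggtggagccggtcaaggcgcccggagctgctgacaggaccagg
Cyp1b1 (chr17:79715012-79715311, - strand): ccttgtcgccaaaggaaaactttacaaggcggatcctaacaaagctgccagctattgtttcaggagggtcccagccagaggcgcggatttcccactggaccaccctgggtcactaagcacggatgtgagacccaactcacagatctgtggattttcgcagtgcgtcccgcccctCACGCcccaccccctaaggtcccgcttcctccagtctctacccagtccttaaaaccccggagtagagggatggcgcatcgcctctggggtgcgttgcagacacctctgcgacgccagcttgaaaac
Tiparp (chr3:65528197-65528496, + strand): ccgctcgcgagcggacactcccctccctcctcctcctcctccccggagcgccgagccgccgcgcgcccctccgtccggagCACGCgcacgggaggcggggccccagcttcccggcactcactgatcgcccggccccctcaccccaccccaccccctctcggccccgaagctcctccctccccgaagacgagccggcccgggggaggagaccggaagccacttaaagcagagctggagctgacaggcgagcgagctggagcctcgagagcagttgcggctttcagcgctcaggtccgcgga
Tuba8 (chr6:121210484-121210783, + strand): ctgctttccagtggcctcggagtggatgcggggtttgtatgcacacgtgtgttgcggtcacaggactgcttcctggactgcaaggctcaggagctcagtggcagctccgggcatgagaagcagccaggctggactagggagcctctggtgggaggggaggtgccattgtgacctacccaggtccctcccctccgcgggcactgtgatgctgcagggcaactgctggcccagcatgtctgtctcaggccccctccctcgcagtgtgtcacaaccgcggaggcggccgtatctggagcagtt

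The motif is short and common, and its presence is a description of these windows. GCGTG on either strand was found in 43.3% of the 18109 windows of the 14452 measured genes with an entry, in 54.2% of the 708 windows of risen genes and in 43.2% of the 500 windows of fallen genes. Among genes changed by at least 2-fold it was in 50.7% of the 146 windows of risen genes and 23.8% of the 42 windows of fallen genes. Among the 25 largest rises it was in 38.5% of 26 windows. A second motif, TGACNNNGC on either strand, the core of the element bound by NRF2, was in 13.9% of all windows, 16.9% of those of risen genes and 16% of those of fallen genes. The median G+C content of these 3 groups was 58.3%, 58.7% and 60.3%. It was 59% for genes risen and 54% for genes fallen at least 2-fold, and 54% for the 25 largest rises. The part of base composition in the motif shares was not tested. A copy of one motif can share its GC with a copy of the other.

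Pcp4l1, a small relative of the calmodulin-binding protein Pcp4, came second when each gene was taken by its brightest probe set. It read 1.94, 1.93, 1.92, 2.67 and 2.09 on the corn oil arrays and 8.0 to 8.69 (median 8.41) on the TCDD arrays, a difference of 6.28 ± 0.14 (limma adjusted p = 3.12e-12). Other probe sets of Cyp1b1 and Tiparp rose by up to 8.13 and 6.56, so this order depends on the probe set. Tuba8, an alpha-tubulin otherwise found mainly in muscle, testis and brain, read 5.24, 5.30, 4.87, 4.88 and 4.88 with corn oil and 9.50 to 10.26 (median 9.94) with TCDD, a rise of 4.90 ± 0.15. Both groups were tight and far apart for these genes. Fmo2, a flavin monooxygenase, rose by 4.59 ± 0.13, from 3.92, 3.68, 3.66, 3.84 and 4.20 to 8.30 to 8.69 (median 8.37). Pmm1, a phosphomannomutase of the mannose pathway, rose by 4.43 ± 0.11, from 3.60, 3.61, 3.45, 3.58 and 3.60 to 7.68 to 8.47 (median 7.91). Nqo1, the quinone reductase shared by the AHR and NRF2 programmes, stood between 3.13 and 3.16 on the corn oil arrays, and its TCDD arrays spanned 6.75 to 8.13 (median 7.42), a rise of 4.33 ± 0.24. Here replicate 6 was the highest of the TCDD arrays.

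Other large rises concerned signalling, lipid and transport genes. Tnfrsf19, a receptor of the tumour necrosis factor family, read 3.49, 3.57, 3.33, 3.60 and 4.39 with corn oil and 7.17 to 8.44 (median 7.94) with TCDD, a rise of 4.21 ± 0.22. Esrrg, the orphan nuclear receptor ERR gamma, rose by 3.49 ± 0.22, from values of 3.23 to 3.35 to values of 5.99 to 7.64 (median 6.74). Slc46a3, a lysosomal membrane transporter, was already well expressed at 9.69, 9.28, 9.52, 9.17 and 9.17 and rose by 3.10 ± 0.14 to 12.35 to 12.61 (median 12.45). It was the gene with the highest corn oil level among the 25, and its groups were separated by more than 2 log2 units. Lrp4, a receptor of the low density lipoprotein receptor family, read 6.24, 5.90, 5.08, 5.92 and 6.49 with corn oil, and 5 TCDD arrays lay between 8.84 and 9.38 while replicate 6 was at 7.01. With replicate 6 the rise was 2.88 ± 0.41, and without it 3.24.

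The remaining rises among the 25 lay between 2.42 and 4.25. They were the fatty acid binding protein Fabp12 (4.25 ± 0.18), the actin regulator Cyfip2 (4.17 ± 0.12), the carbonyl reductase Cbr3 (3.76 ± 0.24), the peroxisomal acyl-CoA thioesterase Acot3 (3.71 ± 0.50), the phospholipase A2 Pla2g12a (3.60 ± 0.25), the acid phosphatase Acpp (3.26 ± 0.11), the ubiquitin ligase Pdzrn3 (3.12 ± 0.13), the doublecortin-like kinase Dclk3 (3.11 ± 0.17), the noncoding RNA Hectd2os (2.98 ± 0.34), the relaxin family member Insl6 (2.87 ± 0.24), the sperm mitochondrial protein Smcp (2.62 ± 0.44) and the peroxisomal fatty acid transporter Abcd2 (2.42 ± 0.47). Hectd2, on the strand opposite to Hectd2os and outside the 25, stood at 2.30 ± 0.17. In all 25 the groups did not overlap, as the rule that chose them required, and adjusted p-values ran from 3.12e-12 to 0.00737. In 8 of the 25 (Pcp4l1, Nqo1, Fabp12, Cbr3, Acpp, Ahrr, Insl6 and Smcp) the corn oil mean lay below 3.19, the highest array median, so the fold is measured from a level little above background. Acot3 and Abcd2 were the least tight in corn oil livers, at 2.13 to 4.93 and 3.25 to 5.99, and Smcp in TCDD livers, at 3.67 to 6.89.

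**Figure D2:**
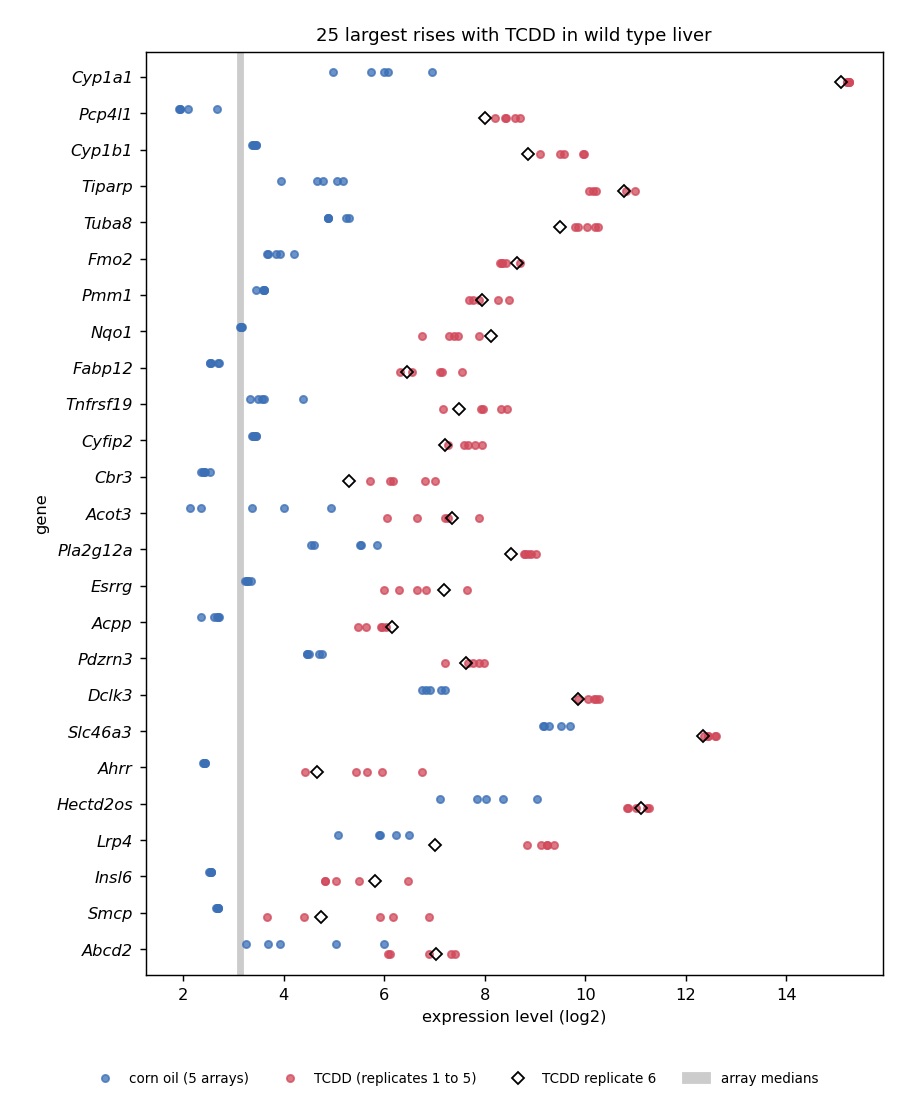
Levels (log2, horizontal axis) of the 25 genes with the largest rises on each wild type array, corn oil in blue and TCDD in red, with TCDD replicate 6 as an open diamond and the range of array medians as a grey band. Cyp1a1 sits at 15.08 to 15.25 on all TCDD arrays, and Lrp4 on replicate 6 (7.01) lies apart from its 8.84 to 9.38 on the other 5.

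The largest fall was that of Serpina7, which encodes the plasma carrier of thyroid hormone. It read 7.85, 8.62, 8.54, 8.27 and 9.91 on the corn oil arrays and 3.12 to 4.08 (median 3.79) on the TCDD arrays, which brought it close to the array median. The fall was 30.1-fold, or -4.91 ± 0.34 (limma adjusted p = 7.92e-07). Hamp, which encodes the iron hormone hepcidin, read 14.86, 14.82, 14.63, 14.10 and 14.69 with corn oil and 11.60 to 13.68 (median 13.17) with TCDD, a fall of 3.21-fold (-1.68 ± 0.31). Its copy Hamp2 read 10.20, 10.20, 10.06, 9.09 and 10.20 against 5.87 to 8.29 (median 7.59), a fall of 5.8-fold (-2.54 ± 0.39). TCDD replicate 5 was lowest for both genes. The 2 genes are similar enough in sequence that their probes may share signal, and a second probe set for Hamp2 differed by 0.01 and was not called.

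Pck1, the rate-limiting enzyme of gluconeogenesis, read 13.85, 13.48, 14.40, 13.76 and 13.61 with corn oil and 11.21 to 13.21 (median 12.26) with TCDD, a fall of 3.2-fold (-1.68 ± 0.28). Tk1, the thymidine kinase of dividing cells, fell from 7.11, 7.0, 7.08, 7.03 and 6.84 to 4.60 to 5.36 (median 5.21), a difference of -1.92 ± 0.14. It was the only called member of 29 measured cell cycle genes, 6 of which had an unadjusted p under 0.05. Lgr5, the receptor for R-spondin that marks hepatocytes around the central vein, read 5.91, 5.04, 4.46, 4.66 and 5.87 with corn oil and 3.51 to 4.11 (median 3.55) with TCDD (-1.48 ± 0.32). Srebf1, the transcription factor that drives fatty acid synthesis, fell from 11.61, 11.57, 11.05, 11.43 and 12.01 to 9.61 to 10.87 (median 10.26), by 2.38-fold (-1.25 ± 0.20). For each of these 4 genes the lowest corn oil array lay above the highest TCDD array, by the least for Srebf1, Pck1 and Lgr5.

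The other falls among the 20 lay between -1.25 and -1.81. They were the retinol and steroid dehydrogenase Rdh9 (-1.81 ± 0.19), the cyclic AMP phosphodiesterase Pde4b (-1.69 ± 0.38), the actin regulator Carmil1 (-1.53 ± 0.27), the planar polarity cadherin Celsr1 (-1.39 ± 0.28), the lysosomal trafficking regulator Lyst (-1.36 ± 0.18), Enho, which encodes the peptide adropin (-1.34 ± 0.14), the phosphate transporter family member Slc17a2 (-1.34 ± 0.12), the lipogenesis regulator Mid1ip1 (-1.32 ± 0.31), Slc16a10, a carrier of aromatic amino acids and thyroid hormones (-1.30 ± 0.20), the steroid dehydrogenase Hsd3b2 (-1.29 ± 0.11), the alcohol dehydrogenase pseudogene Adh6-ps1 (-1.27 ± 0.19), the succinate receptor Sucnr1 (-1.25 ± 0.19) and the methyltransferase Inmt (-1.25 ± 0.18). Adjusted p-values over the 20 ran from 7.92e-07 to 0.023, and the TCDD mean of none lay below 3.19. The call for Pde4b ended without corn oil replicate 1 (adjusted p = 0.0524), and that for Mid1ip1 without corn oil replicate 2 or 5 or TCDD replicate 2 or 5 (-1.48 to -1.13 over all arrays left out). Adh6-ps1 resembles the active alcohol dehydrogenases, and its probes may detect their transcripts.

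**Figure D3:**
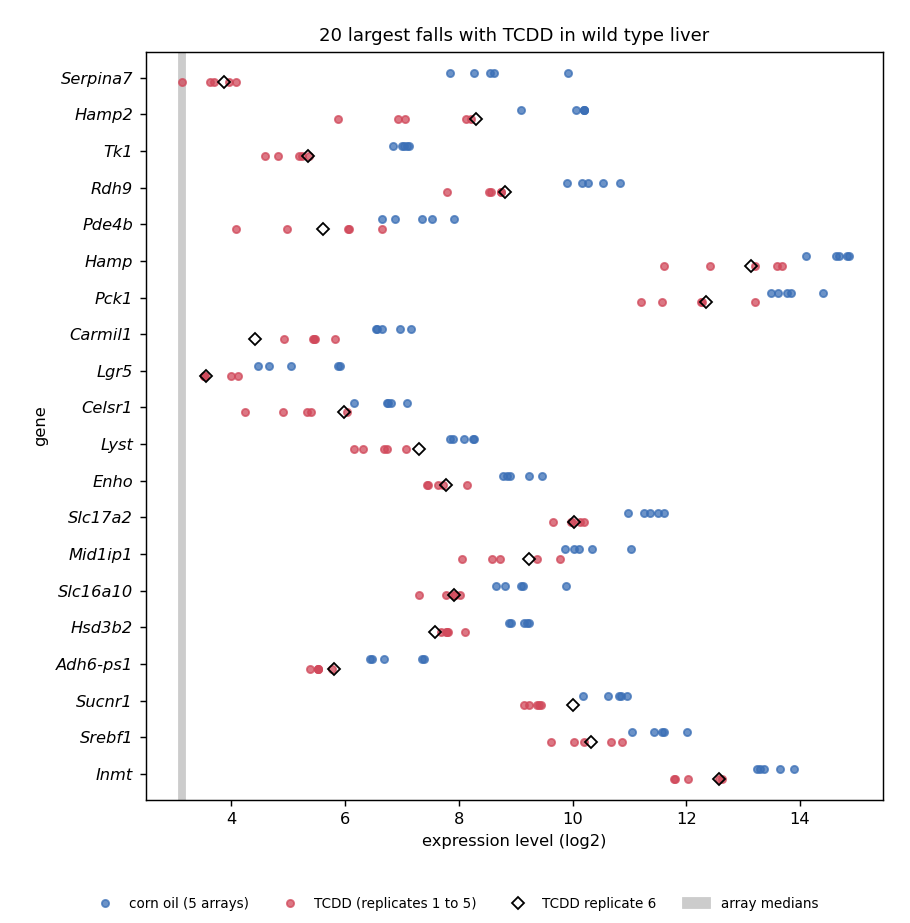
Levels (log2, horizontal axis) of the 20 genes with the largest falls on each wild type array, corn oil in blue and TCDD in red, with TCDD replicate 6 as an open diamond and the range of array medians as a grey band. Serpina7 drops from 7.85 to 9.91 in corn oil livers to 3.12 to 4.08 in TCDD livers, near the band.

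Beyond single genes, 65 lists of genes by function, position in the lobule or cell type were counted. The lists were written with earlier results of these data known, so their shares describe these lists and test nothing. In 35 of them at least 3 measured members and at least 15% of the measured members were called, and these are described here. The 30 others held at most 4 called members each (45 of 553 members in all). For the members named in these paragraphs that are not among the 45 genes above, limma adjusted p-values ran from 3.64e-10 to 0.0479. Whole liver was measured, so fewer cells of a type and less RNA per cell cannot be told apart.

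Of 24 genes of the antioxidant programme of NRF2, 13 rose and none fell (54.2%, median 0.42), including 11 of the 19 members in the highest class of level. The largest were Nqo1, Cbr3, Nfe2l2, which encodes NRF2 itself (2.39 ± 0.11, from a mean of 10.12 to 12.51), and the sulfiredoxin Srxn1 (1.88 ± 0.15). 6 of 20 glutathione transferases rose (30%, median 0.16), led by Gstm3 (2.10 ± 0.16), Gstm2 (1.5 ± 0.12) and Gstm4 (1.37 ± 0.15). Gsta2, a transferase controlled by both AHR and NRF2, stood at 0.98 ± 0.24, and its groups overlapped. Its call ended without any 1 of 8 arrays (0.815 to 1.17). The mu class genes resemble each other closely, and their probes may share signal. Of 4 flavin monooxygenases Fmo2, Fmo1 (1.13 ± 0.08) and Fmo4 (0.76 ± 0.19) rose and Fmo5 fell (-0.48 ± 0.09). The call for Fmo4, at a corn oil mean of 2.43, ended without any 1 of 8 arrays (0.661 to 0.886).

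Conjugation genes were mixed. Among 13 genes of glucuronidation, all in the highest class of level, 3 rose and none fell (23.1%, near the 19.5% of that class, median -0.04). They were Ugdh, which makes UDP-glucuronate (1.59 ± 0.08), Slc35d1, which carries it into the endoplasmic reticulum (1.20 ± 0.07), and the transferase Ugt2b35 (0.77 ± 0.07). Of 11 sulfotransferases Sult5a1 rose (1.58 ± 0.20) and Sult2a8 (-0.47 ± 0.08) and Sult1a1 (-0.73 ± 0.17) fell (27.3%, median 0.01). The Sult1a1 call ended without any 1 of 5 arrays (-0.838 to -0.649), and its groups overlapped. Of 23 aldehyde and alcohol dehydrogenases 2 rose and 3 fell (21.7%, near the share of the highest class, median 0.04). Aldh16a1 stood at 1.38 ± 0.07, Aldh3a2, which oxidises fatty aldehydes, at -0.67 ± 0.15, Adh4 at -0.43 ± 0.10 and Aldh6a1 at -0.20 ± 0.04. Leaving out corn oil replicate 2 ended the call for Aldh3a2 (-0.732 to -0.599 over all arrays), and any 1 of 6 arrays that for Adh4 (-0.505 to -0.35). Among 14 carboxylesterases and hydrolases the epoxide hydrolase Ephx1 (0.60 ± 0.09) and Ces1c (0.25 ± 0.04) rose and the deacetylase Aadac (-0.47 ± 0.05) fell. This share (21.4%, median -0.05) was near that of the highest class, in which all 14 lay.

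Among 35 measured cytochromes P450 of families 2 to 4 there were 8 falls and 3 rises (31.4%, median -0.08). The largest were falls of Cyp3a25 (-0.79 ± 0.16), Cyp3a13 (-0.78 ± 0.11), the fatty acid hydroxylase Cyp2u1 (-0.76 ± 0.14) and Cyp2c70, which makes muricholic acids in the mouse (-0.63 ± 0.12). Haem genes gave 3 rises and 1 fall of 14 (28.6%, median 0.13). The rises were both biliverdin reductases, Blvrb (0.83 ± 0.08) and Blvra (0.48 ± 0.08), and the porphyrin transporter Abcb6 (0.33 ± 0.05), and the fall was that of ferrochelatase, Fech (-0.25 ± 0.05), whose groups overlapped. Of 19 iron handling genes 3 rose and 5 fell (42.1%, median -0.06), the largest being Hamp2, Hamp, the transferrin receptor Tfrc (1.31 ± 0.31) and the iron exporter ferroportin, Slc40a1 (-0.72 ± 0.10). The Tfrc call ended without any 1 of 5 arrays (1.06 to 1.54).

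Lipid genes moved in both directions. Of 21 acyl-CoA thioesterases and synthetases 5 rose and 2 fell (33.3%, median 0.01), and the 4 largest were the thioesterases Acot3, Acot4 (1.97 ± 0.35), Acot1 (1.91 ± 0.18) and Acot2 (0.76 ± 0.14), which lie in a cluster of close copies and may share signal. In fatty acid and triglyceride synthesis 6 of 28 fell and 2 rose (28.6%, median -0.28), with Mid1ip1 and Srebf1, the desaturase Fads2 (-1.04 ± 0.26) and the phosphatidate phosphatase Lpin2 (1.34 ± 0.30). Fads2 read 9.41 on TCDD replicate 6 and 10.9 to 11.25 on the other 5. Its call ended without any 1 of 8 arrays (-1.13 to -0.76), and that of Lpin2 without corn oil replicate 1 (1.22 to 1.48 over all arrays). Among 22 genes of lipid uptake and droplets 3 rose and 1 fell (18.2%, median 0.005, a share below that of the highest class of level). They were the fatty acid receptor Cd36 (1.09 ± 0.19), the lipase activator Abhd5 (0.83 ± 0.17), the fatty acid binding protein Fabp1 (0.15 ± 0.04) and the bile acid and fatty acid ligase Slc27a5 (-0.23 ± 0.05). Any 1 of 9 arrays ended the call for Fabp1 (0.125 to 0.172), which lay near the top of the scale, and any 1 of 3 that for Slc27a5 (-0.262 to -0.189).

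In bile acid synthesis 3 of 18 genes rose and 4 fell (38.9%, median -0.04). Named by size, they were the oxysterol hydroxylase Cyp39a1 (-0.84 ± 0.22), Klb, the coreceptor for the gut hormone FGF15 (0.82 ± 0.14), the side chain oxidase Acox2 (0.70 ± 0.07) and the receptor Fgfr4 (0.33 ± 0.08). The groups overlapped for Cyp39a1 and Fgfr4, whose calls ended without any 1 of 8 (-0.994 to -0.696) and any 1 of 7 arrays (0.264 to 0.382). Of 19 apolipoproteins and assembly genes, 18 of them in the highest class of level, 3 fell and 1 rose (21.1%, near the share of that class, median -0.07). Apoa5, which regulates plasma triglyceride, was at -0.57 ± 0.08, Lcat, the enzyme that esterifies plasma cholesterol, at 0.33 ± 0.05, Apoa1 at -0.14 ± 0.03 and Apoc3 at -0.09 ± 0.02. Apoa1 and Apoc3 lay near the top of the scale, and the Apoc3 call ended without any 1 of 7 arrays (-0.0999 to -0.0844). Cholesterol synthesis and uptake, with 2 falls of 25, and fatty acid oxidation, with 2 rises and 1 fall of 28, stayed below the share of the highest class.

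In glucose and glycogen metabolism 5 of 28 genes rose and 3 fell (28.6%, median -0.01). The falls included Pck1 and Pklr, the liver pyruvate kinase (-1.19 ± 0.16), while Pkm, the pyruvate kinase of other tissues (1.06 ± 0.14), and Gckr, the glucokinase regulator (0.77 ± 0.10), rose. Amino acid breakdown and urea cycle genes gave 10 falls and 2 rises of 31 (38.7%, median -0.27). The glycine decarboxylase Gldc (-0.77 ± 0.13), the histidine pathway enzyme Amdhd1 (-0.75 ± 0.18) and glutamine synthetase, Glul (-0.64 ± 0.07), fell, and Nags, the source of the N-acetylglutamate that activates the urea cycle, rose by 1.19 ± 0.09. The Amdhd1 call ended without any 1 of 6 arrays (-0.88 to -0.66), and its groups overlapped. Of 24 genes of tryptophan and nicotinamide metabolism 5 fell and 1 rose (25%, median -0.03). Of these Afmid (-0.90 ± 0.15), Kynu (-0.68 ± 0.09) and Kyat1 (-0.56 ± 0.07) act in the kynurenine pathway and Naprt (0.52 ± 0.07) makes NAD from nicotinic acid.

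One-carbon and nucleotide genes were divided. Of 22 genes of methionine, one-carbon and sulfur metabolism 3 rose and 4 fell (31.8%, median 0.01), with the mitochondrial serine hydroxymethyltransferase Shmt2 at 0.60 ± 0.07 and its cytosolic partner Shmt1 at -0.48 ± 0.09, the methionine adenosyltransferase Mat1a at -0.53 ± 0.11 and the choline dehydrogenase Chdh at 0.47 ± 0.09. Of 27 purine and pyrimidine genes 4 rose and 3 fell (25.9%, median -0.002). Xdh, the xanthine dehydrogenase that makes uric acid, rose from a mean of 10.45 to 12.13 (1.68 ± 0.06, adjusted p = 3.64e-10), and Aprt (1.39 ± 0.09) and Upb1 (0.32 ± 0.03) rose as well, while Tk1 fell.

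Of 35 acute phase and inflammation genes 10 fell and 1 rose (31.4%, median -0.23). The ferrireductase Steap4 (-1.10 ± 0.11), the endotoxin binding protein Lbp (-0.94 ± 0.14) and Saa4 (-0.68 ± 0.17) fell, and the interleukin 1 receptor Il1r1 rose by 0.91 ± 0.19. The Saa4 call ended without any 1 of 7 arrays (-0.741 to -0.577). In complement and coagulation 8 of 31 fell and 1 rose (29%, median -0.06), with protein S, Pros1 (-0.43 ± 0.06), C8a (-0.35 ± 0.08) and C1s1 (-0.34 ± 0.06) lower and complement factor B, Cfb (0.32 ± 0.03), higher. The C8a call ended without corn oil replicate 1 or 4 (-0.389 to -0.301 over all arrays).

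Among regulators, 4 of 29 liver transcription factors fell and 1 rose (17.2%, below the share of the highest class, median -0.31). Foxo3 rose by 1.03 ± 0.16, and Foxa3 (-0.90 ± 0.20), Nfic (-0.85 ± 0.19) and Cebpa (-0.69 ± 0.14), a master regulator of hepatocyte metabolism, were lower. Corn oil replicate 5 decided the call for Foxa3 (-1.03 to -0.79 over all arrays left out), whose groups overlapped, and replicates 4 and 5 of the same group that for Nfic (-0.938 to -0.682). Within the growth hormone and IGF axis 3 of 16 members fell, namely Igfals (-0.47 ± 0.10), the growth hormone receptor Ghr (-0.44 ± 0.05) and Igf1 (-0.24 ± 0.05; 18.8% called, also below the share of the highest class, median -0.13). Of 16 genes with female-biased expression in mouse liver 4 rose and none fell (25%, median 0.04), and these were Fmo2, Acot3, Abcd2 and Acot4, counted above by function. Of 13 with male-biased expression Cyp2u1 and Keg1 (-0.68 ± 0.12) fell and Gstp1 stood at 0.16 ± 0.04 (23.1%, median -0.47). This share was near the 19.5% of the highest class of level, in which 11 of the 13 lay, 2 of them called. The Gstp1 call ended without any 1 of 9 arrays (0.135 to 0.183).

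Of 28 measured proteasome and ubiquitin genes 8 rose, none fell and 20 were not called (28.6% called, median 0.13). The rises were led by Psmb2 (0.42 ± 0.09), Psmb5 (0.39 ± 0.03), Psmc4 (0.34 ± 0.06) and Psmc3 (0.31 ± 0.05), all subunits of the particle. Without TCDD replicate 6 the count was 6. Of 23 heat shock genes 3 rose and 1 fell (17.4%, below the share of the highest class, median 0.03). Hspa2 was at 0.93 ± 0.12, the mitochondrial chaperone pair Hspe1 and Hspd1 at 0.52 ± 0.08 and 0.27 ± 0.05, and Hspb6 at -0.39 ± 0.10. The mean of Hspa2 was 3.14 with corn oil, little above background, and 4.08 with TCDD. Any 1 of 7 arrays left out ended the Hspb6 call (-0.44 to -0.304). Of 30 cytoskeletal genes 2 rose and 3 fell (16.7%, also below that share, median 0.03). These were Tuba8, the actin crosslinker Actn1 (2.02 ± 0.15), Carmil1 and Tubg1 (-0.43 ± 0.11), for which any 1 of 9 arrays left out ended the call (-0.513 to -0.396). Of 31 genes of oxidative phosphorylation limma called none (median 0.02), and 6 had an unadjusted p under 0.05.

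Genes of the zones of the liver lobule did not move as blocks. Of 19 pericentral genes 3 rose and 4 fell (36.8%, median 0.09). Cyp1a2 and the Wnt feedback gene Axin2 (1.91 ± 0.19, from a mean of 3.79 to 5.69) rose, and Slc1a2, a glutamate transporter, stood at 0.69 ± 0.16 with a call that ended without corn oil replicate 1 or 3 (0.601 to 0.763 over all arrays). Lgr5 and Glul fell. Axin2 and Lgr5 are both targets of Wnt signalling, and they differed in direction. Each has 2 probe sets, of which the other was not called (Axin2 0.06, Lgr5 0.00). Of 16 periportal genes 4 fell and 1 rose (31.2%, median -0.26), with falls of Pck1, Gldc and the cadherin Cdh1 (-0.46 ± 0.11) and a rise of the arginase Arg1 (0.38 ± 0.08). The Cdh1 call ended without any 1 of 6 arrays (-0.551 to -0.416).

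**Figure D4:**
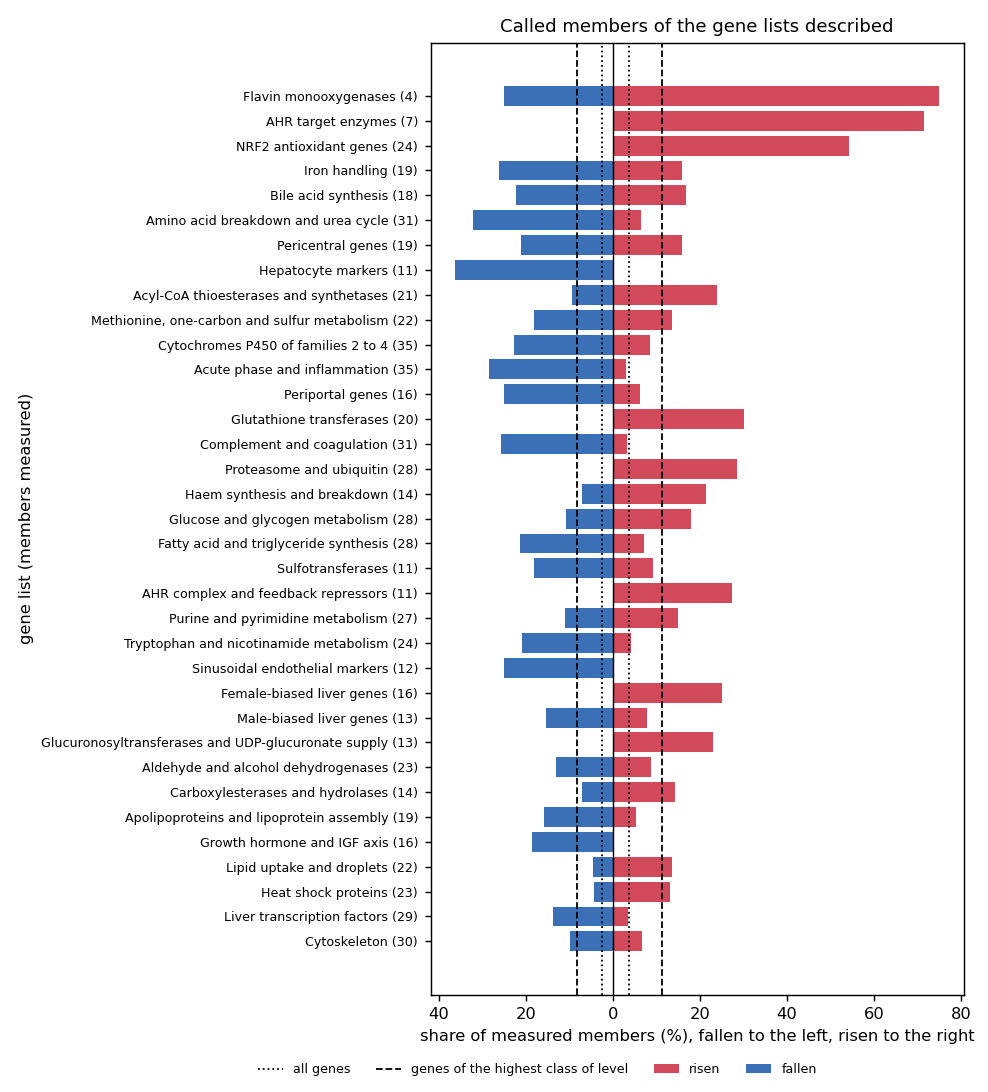
Share of the measured members of each of the 35 gene lists described that rose (red, to the right) or fell (blue, to the left), in percent, with the number measured in brackets. Dotted lines mark all genes (3.75% risen, 2.56% fallen) and dashed lines the genes of the highest class of level (11.3% and 8.2%), and NRF2 antioxidant genes, with 54.2% risen, lie far to the right of both. The lists were written with earlier results of these data known.

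The hepatocyte and other cell markers showed what the samples held. All 11 hepatocyte markers were above the array median. Their summed level was 18.4 to 18.45 (log2) in corn oil livers and 18.3 to 18.38 in TCDD livers, without overlap. The differences of the 11 ran from -0.55, which was not called, to 0.14. Of the 11, all in the highest class of level, 4 fell (36.4%), by at most 0.26 (Fgb, -0.26 ± 0.05; Apoa1 and Apoc3, above; Ahsg, -0.10 ± 0.02, called only while each of 5 arrays was kept, -0.11 to -0.0923). Of 84 measured markers of other cell types none rose and 6 fell (7.14%, near the 6.32% of all genes). Among 12 sinusoidal endothelial markers Clec4g (-0.55 ± 0.07), Stab2 (-0.35 ± 0.05) and Stab1 (-0.35 ± 0.09) fell (25%, median -0.15), and the summed level of the 12 was 12.01 to 12.11 in corn oil and 11.84 to 11.92 in TCDD livers, without overlap. The Stab1 call ended without any 1 of 8 arrays (-0.397 to -0.309). Markers of Kupffer cells and macrophages (0 of 12 called, 1 with an unadjusted p under 0.05) summed to 12.61 to 13.22 and 12.33 to 13.1, and those of stellate cells to 11.66 to 12.25 and 11.9 to 12.28, with overlap. The adipocyte list summed to 15 to 15.1 in corn oil and 14.54 to 14.69 in TCDD livers, through Car3, and the pancreas list to 9.27 to 9.87 and 8.53 to 8.78, through Cela1, while 3 of 5 and 4 of 6 of their members lay below the array median. The part of cell composition in the gene lists was not tested.

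Without TCDD replicate 6, limma called 1866 probe sets, 1090 higher and 776 lower, of which 1647 were also called with it. On the level of genes 997 of the 1149 calls remained, 152 were lost and 127 gained, which gave 624 risen and 500 fallen genes. All 45 of the largest rises and falls were called without it, and their differences were 0.89 to 1.12 times those with it. The counts of many lists moved. For example, the acyl-CoA thioesterases and synthetases then had 4 rises and 4 falls, the liver transcription factors 2 and 3, the cytoskeletal genes 3 and 2 and the pericentral genes 4 and 3. Amino acid breakdown and urea cycle genes had 2 and 12, fatty acid and triglyceride synthesis 2 and 7 and the glutathione transferases 5 and 0. On replicate 6 itself the difference from the corn oil mean was smaller than the mean difference of the other 5 TCDD arrays in 16 of the 25 rises and 17 of the 20 falls. The response of Cyp1b1, for example, was 5.45 on replicate 6 and 6.21 on the others, that of Cbr3 2.87 and 3.94, and that of Hamp2 -1.66 and -2.71. Nqo1 went the other way, at 4.98 and 4.21.

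The arrays were scanned on 3 days, of which 2 held both wild type groups, day 1 with 1 corn oil and 2 TCDD arrays and day 2 with 3 and 4. All 45 of the largest rises and falls had the same sign within both days, which their choice by groups without overlap made certain. Within day 2 limma called 31 of them. Cyp1a1 differed by 9.49 within day 1 and 9.51 within day 2, Pcp4l1 by 6.70 and 6.09, Tiparp by 6.12 and 5.71 and Serpina7 by -4.00 and -4.82. On day 1 the fall of Mid1ip1 was -0.61, of Adh6-ps1 -0.82, of Sucnr1 -0.79 and of Slc16a10 -1.97, each over 1.5 times away from its value over all arrays. With scan day as a block limma called 1812 probe sets, 1619 of them shared, all 45 genes and 139 of the 150 named calls. The 11 calls that ended were those for Gsta2, Sult1a1, Fmo4, Fads2, Fabp1, Cyp39a1, Saa4, Hspb6, Tubg1, Cdh1 and Gstp1 (adjusted p = 0.0537 to 0.108), with the sign of each kept.

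Of the 45 genes, 20 were represented by several probe sets. All of them were called in the same direction for 6 genes, such as Tiparp, whose 3 probe sets rose by 5.78 to 6.56. For the other 14 at least 1 was not called, and in no gene was one called in the opposite direction. The 3 probe sets of Cyp1b1 ranged from 0.00 to 8.13, those of Cyfip2 from 0.74 to 4.42 and those of Esrrg from 0.00 to 3.49, so the size of these responses depends on the probe set that stands for the gene. 4 of the 45 (Tiparp, Acot3, Hamp2 and Rdh9) rest on probe sets whose suffix marks probes shared with other transcripts. The same limit holds for named members of the lists. Of Nrip1 1 of 6 probe sets was called, and of Fgfr4 1 of 5 (-0.19 to 0.33). The second probe sets of Klb (0.006), Il1r1 (0.017) and Kynu (-0.006) were not called. Others, such as Pklr and Ghr, had all 3 called in the same direction. Outside the 45, 11 named genes rest on probe sets with the suffix of shared probes. They are Arnt, Srxn1, Gstm3, Fmo5, Kyat1, Shmt2, Chdh, Aprt, C1s1, Hspe1 and Ghr.

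The same dose was given to Ahr-/- mice, and the difference between the responses was tested in the same fit. In the knockout livers the 25 genes that rose most in wild type differed by -1.12 to 1.26 between TCDD and corn oil, and the 20 that fell most by -0.43 to 0.76. For 22 of the 25 rises and 8 of the 20 falls the knockout response differed from the wild type one (limma adjusted p under 0.05 over all probe sets). Over all 18193 genes 297 were called for this difference (1.63%), but the 45 were chosen by their wild type difference, which is part of the quantity tested, so the 2 shares cannot be compared. Cyp1a1 differed by 1.26 ± 1.36 in knockout and 9.26 ± 1.01 in wild type livers, Pcp4l1 by 0.00 ± 0.19 and 6.28 ± 0.14, and Serpina7 by 0.13 ± 0.46 and -4.91 ± 0.34. Dclk3 was the gene of the 25 with the second highest knockout value (0.77 ± 0.23 against 3.11 ± 0.17). The 3 rises without a called difference were Lrp4, Smcp and Abcd2, and the falls without one included Hamp, Hamp2, Pck1 and Srebf1, whose knockout values had wide errors (Hamp 0.09 ± 0.41, Pck1 0.20 ± 0.38). Of all 1149 genes called in wild type livers, 280 were called for the difference, a count that the wild type calls also shape. The 2 comparisons share no array, though they share the estimate of the spread.

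**Figure D5:**
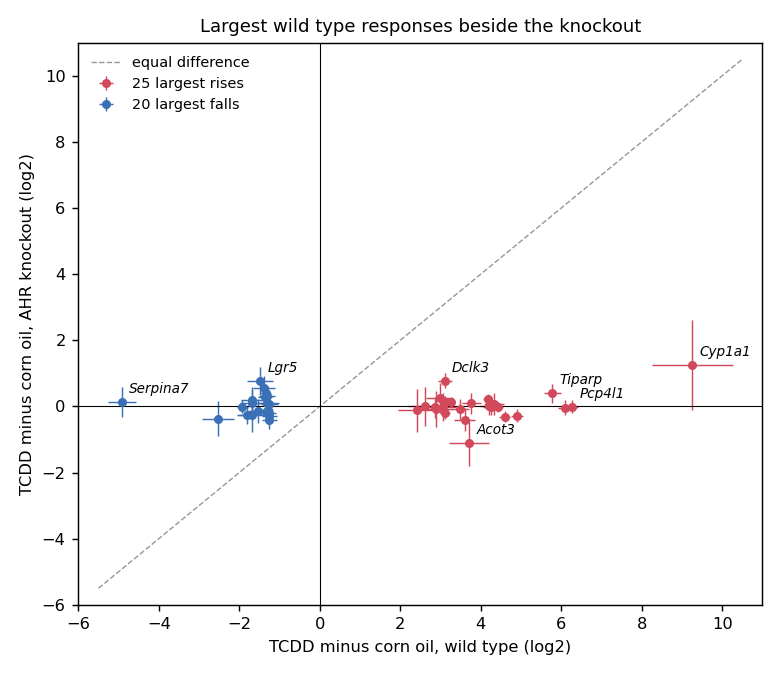
Difference between TCDD and corn oil (log2) in Ahr-/- livers (vertical axis, 3 against 3 arrays) against that in wild type livers (horizontal axis, 6 against 5 arrays) for the 45 genes, with SE bars and a dashed line of equal difference. The 25 rises (red) lie between -1.12 and 1.26 on the knockout axis, far below the line, and the 20 falls (blue) between -0.43 and 0.76.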

How the data were processed

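In all, 11 wild type and 6 Ahr-/- liver samples were read on 17 Affymetrix Mouse Genome 430 2.0 arrays. The authors deposited 1 log2 expression value per probe set and array, on a scale shared by the arrays, whose medians lie between 3.08 and 3.19. The submitters' processing notes name RMA, GCRMA and affy 1.5.8, without saying which of them gave these values. The values run from 0.333 to 15.9. The scan settings of each array (other text fields, deposited with the arrays) gave the scan day, and no detection calls were used. The number of arrays limits the precision.

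From the 45101 probe sets 64 controls were left out. Genes were named from GEO's platform annotation, updated through Entrez IDs (34741 probe sets matched): 34945 probe sets named 1 gene, 932 several and 9160 none. Each gene was represented by its brightest probe set (mean over 17 arrays). limma 3.58.1 (R 4.3.3), with functions lmFit and eBayes (4 group means, all 17 arrays, 13 residual and 1.00 prior degrees of freedom) tested TCDD against corn oil, with Benjamini-Hochberg adjustment over 45037 probe sets. SE is limma's moderated standard error. The code was tested on simulated data.

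The text names the 25 largest rises and 20 largest falls among called genes with a symbol whose wild type groups do not overlap (2 genes known only by clone names were passed over), up to 4 called members of each list described, and Ahr, Arnt, Ahrr, Tiparp, Cyp1a1, Cyp1a2, Cyp1b1 and Nqo1. Hectd2 was named after its value was seen. The members and lists were chosen with earlier results of these data known. Alternatives were other normalization, centring, samples, blocks, weights, filters, error models and probe sets.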

Additional observations from a re-analysis of the deposited data

Results flagged for a closer look

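In 304 groups of 5 or 6 wild type arrays, formed by the named genes, 26 had an array far from the others of its group by Dixon's criterion, which chance alone meets in about 1 in 20 groups. Values are levels (log2), with the range of the other arrays of the group in brackets. TCDD replicate 6, the array with the large gap between Gapdh ends, accounted for 8 of them: Cyp1a1 15.08 (15.20 to 15.25), Lrp4 7.01 (8.84 to 9.38), Sucnr1 10.0 (9.14 to 9.44), Cyp1a2 15.54 (15.64 to 15.68), Sult5a1 8.44 (9.09 to 9.32), Cebpa 11.08 (11.80 to 12.08), Fads2 9.41 (10.90 to 11.25) and Fabp1 15.79 (15.89 to 15.95). Corn oil replicate 1 gave 5: Blvra 6.83 (7.2 to 7.30), Fabp1 15.64 (15.76 to 15.78), Acox2 11.35 (11.68 to 11.80), Glul 12.63 (12.85 to 12.93) and Hspe1 11.80 (12.06 to 12.16). The other corn oil arrays gave Aldh6a1 12.53 (12.41 to 12.43) on replicate 2, Pmm1 3.45 (3.58 to 3.61) on replicate 3, Tubg1 7.57 (7.96 to 8.04) on replicate 3, Pcp4l1 2.67 (1.92 to 2.09) on replicate 4, Hamp2 9.09 (10.06 to 10.20) on replicate 4 and Tnfrsf19 4.39 (3.33 to 3.60) on replicate 5. The other TCDD arrays gave Axin2 6.66 (5.15 to 5.67) on replicate 1, Rdh9 7.80 (8.53 to 8.81) on replicate 2, Srxn1 10.57 (10.01 to 10.20) on replicate 2, Fgb 15.05 (15.16 to 15.22) on replicate 2, Slc16a10 7.30 (7.77 to 8.01) on replicate 3, Shmt2 12.51 (12.15 to 12.26) on replicate 4 and Tubg1 7.91 (7.33 to 7.49) on replicate 4. What lies behind these values was not tested.

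For 30 of the 45 genes with the largest responses the effect of TCDD differed between genotypes (limma, adjusted p under 0.05 for the difference). The genes were chosen by their wild type difference, which is part of the quantity tested. Given as the knockout minus the wild type effect (log2), the difference was Cyp1a1 -8.00, Pcp4l1 -6.28, Cyp1b1 -6.12, Tiparp -5.38, Tuba8 -5.18, Fmo2 -4.90, Pmm1 -4.44, Nqo1 -4.26, Fabp12 -4.27, Tnfrsf19 -4.18, Cyfip2 -3.94, Cbr3 -3.66, Acot3 -4.84, Pla2g12a -4.00, Esrrg -3.57, Acpp -3.13, Pdzrn3 -3.32, Dclk3 -2.34, Slc46a3 -2.97, Ahrr -3.08, Hectd2os -2.72 and Insl6 -2.89 for genes that rose in wild type livers. For genes that fell it was Serpina7 5.05, Tk1 1.92, Rdh9 1.54, Lyst 1.63, Enho 1.75, Slc17a2 1.17, Slc16a10 1.63 and Hsd3b2 1.18. Adjusted p-values ran from 4.02e-09 for Pcp4l1 to 0.0347 for Cyp1a1. Age and source of the mice went with genotype, and their part cannot be told apart from that of the receptor.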

How the results depend on the processing

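Within scan day 1, which holds 1 corn oil array, 456 probe sets were called (184 higher, 272 lower, 76 by at least 2-fold, 95 shared with all arrays) and 229 genes (109 risen, 120 fallen). Within day 2 the counts were 564 (380 higher, 184 lower, 176 by at least 2-fold, 524 shared) and 353 genes (237 and 116). Both use fewer arrays. Within day 2, 71 of the 150 named calls and 31 of the 45 largest rises and falls were kept. With the replicate number of the titles as a block, wild type arrays alone, 656 probe sets were called (467 higher, 189 lower, 577 shared) and 400 genes (282 and 118). This block kept 78 of the 150 named calls and 32 of the 45 largest rises and falls. The labels do not say whether these numbers pair the samples. Deviations of arrays with the same number correlated at -0.232 to 0.0184, and 0 of 5 corn oil arrays correlated best with its own number. With so few arrays these values cannot decide whether the samples were paired.

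Leaving out 1 wild type array gave 1466 to 1866 probe sets (939 to 1128 higher, 527 to 776 lower, 268 to 313 by at least 2-fold) and 909 to 1124 genes (557 to 677 risen, 344 to 500 fallen), and ended 27 of 150 named calls at least once. Without TCDD replicate 6, 71 rather than 69 named genes were called for the difference between genotypes. Array weights called 2237 probe sets, 51.3% of them higher against 60.9%. Quantile normalization (1914), median centring (1819), the scan day block (1812), wild type arrays alone (1484), a trended and robust fit (1794), no moderation (1635) and a filter on dim probe sets (2450) stayed within 1.5 times of 1882. The fit of wild type arrays alone kept 131 of the 150 named calls and 43 of the 45 largest rises and falls, losing Pde4b and Mid1ip1, and also ended the calls for Gsta2, Sult1a1, Fmo4, Adh4, Foxa3, Nfic, Cebpa, Fads2, Slc27a5, Cyp39a1, Fgfr4, Amdhd1, C8a, Tubg1, Cdh1, Gstp1 and Stab1. Over the other of these settings 139 to 148 calls were kept. All 150 named calls (149 under the filter) kept their sign in every setting. For genes whose groups did not overlap, leaving out arrays could not change the sign. Levels near the array median or the top of the scale limit the differences that can be seen, and in that range a missing call says little.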
